A study of Homo sapiens with 42 samples.

Results

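MOLM-14 is an established human acute myeloid leukaemia line of monocytic type, known to carry a fusion of KMT2A with MLLT3 and an internal tandem duplication of the receptor kinase FLT3, and its sister line MOLM-13 was grown from the same patient. The response of MOLM-14 to decitabine was described from 6 RNA-seq libraries, chosen by the line name and treatment letter of their columns in the deposited table, out of 30 libraries analysed and 42 labelled in the series. The 3 decitabine libraries came from wild-type cells that received 100 nM of the drug on each of days 0, 1 and 2, and the 3 DMSO libraries came from wild-type cells given the solvent. Both groups were seeded at 100000 cells per mL in 6-well plates, RNA was extracted at 72 hours, and stranded libraries were made from total RNA after ribosomal RNA removal. Cells were plated in parallel wells, and nothing in the labels names separate cultures, so that p-values measure the spread between these samples, which may be technical. The design text does not list MOLM-14 among its lines, so that its identity is taken from the labels of the samples and of the columns. The other 24 libraries come from KG-1, MOLM-13, OCI-AML3 and SKM-1 under the same treatments, and were used to estimate the spread of each gene and to compare responses.

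Decitabine is a cytidine analogue that is taken up by nucleoside transporters, phosphorylated by deoxycytidine kinase and built into DNA during replication, where it traps DNA methyltransferases and lowers methylation as cells divide. Genes that were silenced by methylation can then be transcribed, and the trapped protein also leads to DNA damage signalling through p53. The integrated stress response, to which genes that fell in MOLM-14 belong, is a separate pathway. Kinases that sense amino acid shortage, unfolded protein, haem shortage or viral RNA slow translation in general and let the mRNA of the transcription factor ATF4 be translated, and ATF4 then raises genes for amino acid synthesis, amino acid import and tRNA charging.

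The 6 libraries differed in depth. The decitabine libraries held an estimated 15.3, 1.97 and 16.4 M reads, and the DMSO libraries held 15.8, 2.02 and 17.3 M (M, 10 to the power of 6), so that replicate 2 of each group is shallow and 1 read there is worth about 10 normalised counts. Across genes the log values of replicates 1 and 3 correlated at r = 0.967 in either group, and those of replicate 2 with the others at 0.891 to 0.900, which is a description over genes within these libraries. The share of the total in mitochondrial genes was 10.9% ± 0.512 in decitabine libraries and 8.66% ± 0.535 in DMSO libraries (SD, n = 3 each; exact two-sided permutation p = 0.1, the smallest that 3 against 3 allows). Markers fixed for the line were present: LYZ, the KMT2A targets HOXA9 and MEIS1, and FLT3 were all expressed, while CD14, a surface marker of mature monocytes, was listed at 0 in all 3 decitabine libraries and in 2 of the 3 DMSO libraries. FLT3 had 5480.1, 5229 and 5964 normalised counts with decitabine, against 6447, 6523 and 6712 with DMSO, and neither FLT3 nor HOXA9 (1133, 1132 and 1265 with decitabine, against 1172, 1434 and 1341 with DMSO) passed the test (limma, BH-adjusted p = 0.397 and 0.6).

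Decitabine changed 665 of 16730 genes tested in MOLM-14 (3.97%), 393 of them higher (2.35%) and 272 lower (1.63%), at a BH-adjusted p below 0.05 in limma. The genes that rose had a median log2 fold change of 1.29 and a median DMSO mean of 166.5 normalised counts, against 243.6 over all genes tested. The genes that fell had a median fall of 0.78 on the log2 scale and a median DMSO mean of 1714 normalised counts. Of 752 tested genes with a DMSO mean under 10, 62 were among those that rose. Such genes reach the minimum of 10 over all 6 libraries only through their decitabine values, so that they could appear only as rises. In the same way a gene with a decitabine mean under 10 could appear only as a fall. The median log2 fold change over all genes tested was 0.02. Leaving out the shallow pair gave 947 higher (5.66%) and 779 lower (4.66%), which included 379 of the 393 genes that rose and 266 of the 272 that fell. In a fit of the MOLM-14 libraries alone 169 genes were higher and 162 lower. None of the 112 called genes followed through the settings changed its direction under any setting tried. The count of higher genes was 182, 219 and 254 without decitabine replicate 1, decitabine replicate 3 and DMSO replicate 1, and the count of lower genes was 154, 128 and 149 without decitabine replicate 1, DMSO replicate 1 and DMSO replicate 3.

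The promoters of ASNS and CHAC1 are shown here because both were among the 12 protein-coding genes with the largest falls and both hold TGATGNAA, the core of the composite element that ATF4 is known to bind with C/EBP partners. The sequences are the 250 bases before the RefSeq gene start on GRCh38.p14, 5′ to 3′ on the strand of the gene, with the element or its reverse complement in capitals.
ASNS, asparagine synthetase, chr7:97872409-97872658, minus strand: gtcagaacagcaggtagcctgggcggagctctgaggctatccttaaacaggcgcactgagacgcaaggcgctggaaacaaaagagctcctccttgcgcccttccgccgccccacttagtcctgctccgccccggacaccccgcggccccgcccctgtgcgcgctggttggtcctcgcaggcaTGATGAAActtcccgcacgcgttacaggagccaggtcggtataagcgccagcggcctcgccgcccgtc
CHAC1, a glutathione-degrading enzyme, chr15:40953221-40953470, plus strand: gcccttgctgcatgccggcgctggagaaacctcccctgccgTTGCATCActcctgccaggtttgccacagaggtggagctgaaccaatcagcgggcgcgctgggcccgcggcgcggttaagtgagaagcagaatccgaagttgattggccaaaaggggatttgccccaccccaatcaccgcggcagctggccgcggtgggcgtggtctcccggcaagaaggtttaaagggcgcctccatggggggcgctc

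Both strands of the 300 bases from 250 before to 50 after each start were searched for TGATGNAA, in protein-coding genes matched to a promoter in the RefSeq table. The element was present at 17 of 205 genes that fell (8.29%), against 178 of 10043 such genes tested (1.77%) and 3.67% of all 27305 promoters in the table. The 17 included 6 aminoacyl-tRNA synthetases (AARS1, CARS1, IARS1, MARS1, NARS1 and TARS1), which join amino acids to tRNAs, the amino acid transporter genes SLC7A1, SLC38A1 and SLC3A2, and BCAT1 and MTHFD1L, enzymes of branched-chain amino acid and folate metabolism. The rest were ASNS, CHAC1, RSL24D1, CDKAL1, PCGF6 and TRUB1. Among genes that rose, HK1 and MUSTN1 held the element, 2 of 279 (0.72%). Of the listed integrated stress response genes matched to a promoter, 4 of 20 held it. NARS1 and TARS1 were not called without any of 4 libraries in turn, nor MTHFD1L without DMSO replicate 3 (highest limma BH-adjusted p = 0.0925, 0.158 and 0.056). A match describes the letters in this window and not a bound site. Windows around the element, written on the strand that reads TGATGNAA, are given so that the flanking bases can be compared. They cover the synthetase and transporter genes, BCAT1 and MTHFD1L.
AARS1, chr16:70289676-70289703: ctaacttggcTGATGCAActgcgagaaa
CARS1, chr11:3057408-3057435: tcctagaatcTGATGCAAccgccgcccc
IARS1, chr9:92293693-92293720: cgcacggaggTGATGCAAcgcgctgaaa
MARS1, chr12:57488054-57488081: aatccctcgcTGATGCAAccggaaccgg
NARS1, chr18:57621805-57621832: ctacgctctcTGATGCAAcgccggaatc
TARS1, chr5:33440957-33440984: ctggaccagcTGATGCAAtcgaaaggcg
SLC7A1, chr13:29595664-29595691: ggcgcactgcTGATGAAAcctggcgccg
SLC38A1, chr12:46266503-46266530: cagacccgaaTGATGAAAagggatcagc
SLC3A2, chr11:62881726-62881748: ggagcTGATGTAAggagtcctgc
BCAT1, chr12:24949132-24949159: gtcttcctgcTGATGCAAtccgctaggt
MTHFD1L, chr6:150866347-150866374: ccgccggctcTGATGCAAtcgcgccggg

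Transcripts of the integrated stress response fell together. Of 25 listed genes of the response and of amino acid supply, all 25 were tested, 21 fell and none rose, against 1.63% of all genes called lower, and their median log2 fold change was -1.57, against 0.02 over all genes. In 24 of the 25 the 3 decitabine values lay below all 3 DMSO values, against 11.6% of all genes. ATF4 itself had 3177, 3685 and 3270.4 normalised counts with decitabine, against 6097, 6166 and 6267 with DMSO. All decitabine values of ATF4 lay below all DMSO values (log2 fold change -0.87 ± 0.13 SE, limma, BH-adjusted p = 0.000187). TRIB3, a pseudokinase that ATF4 is known to switch on, had 147, 137 and 155 normalised counts with decitabine, against 764, 823 and 741 with DMSO (log2 fold change -2.40 ± 0.18 SE, limma, BH-adjusted p = 1.75e-08). CHAC1 had 24.3, 20.3 and 16.4 normalised counts with decitabine, against 143, 198 and 161 with DMSO (log2 fold change -2.98 ± 0.37 SE, limma, BH-adjusted p = 9.92e-06). ADM2, which encodes a secreted peptide of the calcitonin family, had 23.0, 31.0 and 24.9 normalised counts with decitabine, against 240.2, 209 and 262 with DMSO (log2 fold change -3.13 ± 0.37 SE, limma, BH-adjusted p = 6.26e-06). In each of these genes the groups were far apart, and the shallow replicate lay with its own group.

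Enzymes of asparagine, serine and cysteine synthesis were among the genes that fell. ASNS had 795, 611 and 871 normalised counts with decitabine, against 4529, 4037 and 5325 with DMSO (log2 fold change -2.61 ± 0.27 SE, limma, BH-adjusted p = 6.87e-07). PSAT1 and PHGDH carry out steps of serine synthesis, and PSAT1 had 1244, 1289.6 and 1328 normalised counts with decitabine, against 6107, 5550.2 and 6670.1 with DMSO (log2 fold change -2.24 ± 0.18 SE, limma, BH-adjusted p = 1.86e-08). PHGDH had 773, 622 and 864 normalised counts with decitabine, against 2965, 2914 and 3088 with DMSO, and neither gene had a decitabine value near its DMSO values (log2 fold change -2.00 ± 0.28 SE, limma, BH-adjusted p = 5.6e-05). The next serine enzyme PSPH and the mitochondrial folate enzymes SHMT2 and MTHFD2, which use serine, fell by 1.17, 1.10 and 1.05 on the log2 scale (limma, adjusted p = 0.000386, 0.00011 and 0.00037). PCK2, a mitochondrial enzyme that makes phosphoenolpyruvate, had 546, 575 and 690.2 normalised counts with decitabine, against 2263, 2808 and 2442 with DMSO (log2 fold change -2.05 ± 0.16 SE, limma, BH-adjusted p = 1.75e-08). CTH, which releases cysteine from cystathionine and stood in no list, had 71.6, 119 and 132 normalised counts with decitabine, against 663, 763 and 778 with DMSO (log2 fold change -2.80 ± 0.36 SE, limma, BH-adjusted p = 2.17e-05).

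Amino acid transporters followed. SLC7A5, which carries large neutral amino acids, had 1412, 2143 and 1281 normalised counts with decitabine, against 6953, 8933 and 6109 with DMSO (log2 fold change -2.20 ± 0.20 SE, limma, BH-adjusted p = 1.17e-07). SLC7A11, the cystine importer, had 1169, 687 and 789 normalised counts with decitabine, against 4012, 3501 and 3225 with DMSO (log2 fold change -2.05 ± 0.24 SE, limma, BH-adjusted p = 7.02e-06). Their common partner chain SLC3A2 had 564, 540 and 538 normalised counts with decitabine, against 1841, 1929 and 1872 with DMSO, a tight set in either group (log2 fold change -1.78 ± 0.26 SE, limma, BH-adjusted p = 0.000118). SLC38A2, an importer of small neutral amino acids, fell by 1.17 on the log2 scale (limma, adjusted p = 3.24e-05). SLC6A9, a glycine transporter and the protein-coding gene with the largest fall, was nearly gone, with 6.23, 0 and 4.07 normalised counts with decitabine, against 111, 182 and 138 with DMSO (log2 fold change -5.41 ± 1.00 SE, limma, BH-adjusted p = 0.00151). SLC6A9 passed the filter only through its DMSO values. SLC7A5P1, a pseudogene copy of SLC7A5, also fell, but reads of near-identical copies may be shared between them.

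Other known ATF4 targets that fell were SESN2, an inhibitor of mTORC1 signalling, DDIT4, another such inhibitor, STC2, a secreted glycoprotein, and the C/EBP family members CEBPB and CEBPG. SESN2 had 307, 185 and 275 normalised counts with decitabine, against 749, 754 and 733 with DMSO (log2 fold change -1.57 ± 0.21 SE, limma, BH-adjusted p = 3.24e-05). DDIT4 had 2741, 2920 and 2499.8 normalised counts with decitabine, against 7456, 7509 and 6556 with DMSO (log2 fold change -1.40 ± 0.23 SE, limma, BH-adjusted p = 0.000483). STC2, CEBPB and CEBPG fell by 2.68, 1.45 and 0.58 on the log2 scale (limma, adjusted p = 0.00187, 0.00225 and 0.00191). DDIT3, which encodes the transcription factor CHOP, passed the test with 238, 206 and 202 with decitabine, against 409, 613 and 405 with DMSO (log2 fold change -1.11 ± 0.31 SE, limma, BH-adjusted p = 0.0392), but not when any of the 6 libraries was left out (highest BH-adjusted p = 0.146, without decitabine replicate 3). Of the 4 members that did not pass, ALDH1L2, ATF3 and VLDLR still had groups that did not overlap, with ALDH1L2 at 3285, 3107 and 3051 with decitabine, against 10693, 10289 and 10199 with DMSO normalised counts. Their p-values in the fit of all lines were high (limma, BH-adjusted p = 0.32, 0.281 and 0.293). In MOLM-14 libraries alone ALDH1L2 and VLDLR passed (limma, BH-adjusted p = 0.000724 and 0.0126), and ATF3 did not (BH-adjusted p = 0.0514). The last member, NUPR1, had 72.1, 141 and 66.8 with decitabine, against 89.9, 119.6 and 94.0 with DMSO, which overlapped.

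**Figure D1:**
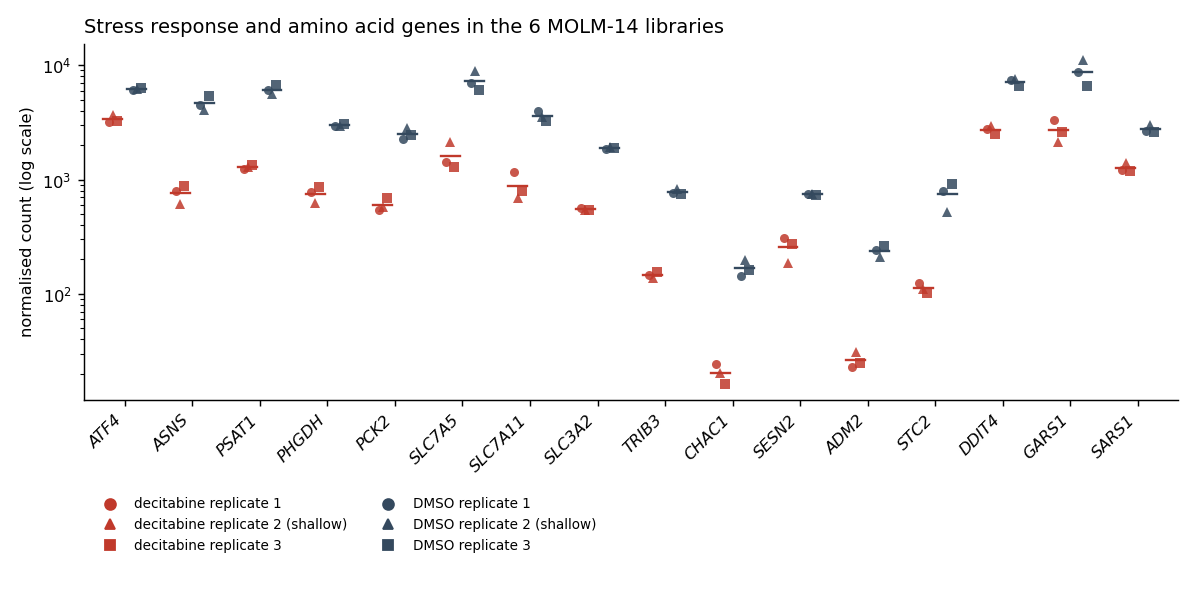
Normalised counts on a log axis of 16 stress response and amino acid genes in the 3 decitabine libraries (red, left of each pair) and the 3 DMSO libraries (dark, right), with group means as lines and triangles for the shallow replicate 2. In each of the 16 genes all decitabine points lie below all DMSO points, as for PSAT1 at 1244 to 1328.5 with decitabine against 5550.2 to 6670.1 with DMSO.

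The cytosolic aminoacyl-tRNA synthetases, several of which are known ATF4 targets, fell in the same libraries. Of 21 tested, 13 fell and none rose, against 1.63% of all genes called lower, with a median log2 fold change of -0.60, and 13 also fell without the shallow pair. Of 17 mitochondrial synthetases none passed in either direction and their median was 0.01, and the difference between these lists was not tested. GARS1, for glycine, had 3331, 2129 and 2617 normalised counts with decitabine, against 8763, 11067 and 6580.3 with DMSO (log2 fold change -1.70 ± 0.22 SE, limma, BH-adjusted p = 2.19e-05). SARS1, for serine, had 1221, 1397 and 1188 normalised counts with decitabine, against 2654, 3009 and 2583 with DMSO (log2 fold change -1.12 ± 0.16 SE, limma, BH-adjusted p = 7.97e-05). YARS1, EPRS1, AARS1 and CARS1 fell by 0.89, 0.79, 1.13 and 1.15 on the log2 scale. KARS1 and QARS1 showed overlapping values and did not pass, with log2 fold changes of -0.07 and 0.15. WARS1, which interferon is also known to raise, spread widely between replicates, at 1416, 1335 and 2826 with decitabine, against 3887, 11500 and 7513 with DMSO (log2 fold change -1.99 ± 0.30 SE, limma, BH-adjusted p = 0.000169).

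The fall of these genes was set against the same treatment in the other lines, each with its own DMSO libraries. Of the 25 stress response genes, 14 had a fall in MOLM-14 that differed from the mean response of the other 4 lines and 18 differed from the response of MOLM-13, against 0.861% and 1.64% of all genes tested for those differences. The first of these counts was 8 without decitabine replicate 1 and 8 without decitabine replicate 3, and 21 without the shallow pair. Against MOLM-13, 8 of 21 cytosolic synthetases and 6 of 22 monocyte and macrophage markers differed. The count of synthetases was 3, 4 and 4 without decitabine replicate 1, DMSO replicate 1 or DMSO replicate 3, and 5 without decitabine replicate 3. The count of markers was 0 without either of decitabine replicates 1 and 3, 2 without either of DMSO replicates 1 and 3, and 10 without the shallow pair. The stress response list's median log2 fold change was -1.57 in MOLM-14, -0.31 in MOLM-13 and -0.39 for the mean of the other 4 lines. In MOLM-13, 14 of the 25 genes were also called lower and none higher, where 15.7% of all genes were called lower and replicates were tighter (the variance scale of MOLM-14 was 7.12 times that of MOLM-13). In SKM-1, 21 of the 25 were called lower, against 18.1% of all genes there. In OCI-AML3, 9 were called lower, against 0.365% of all genes, and in KG-1 1 was called higher and none lower, against 2.31% and 0.269%. ASNS averaged 759 ± 134 normalised counts with decitabine and 4630 ± 649.8 with DMSO in MOLM-14, against 5382 ± 125 and 6667 ± 444 under the same treatments in MOLM-13 (SD, n = 3 each). TRIB3 averaged 146 ± 8.98 normalised counts with decitabine and 776 ± 42.6 with DMSO in MOLM-14, against 867 ± 35 and 1303 ± 5.98 under the same treatments in MOLM-13 (SD, n = 3 each). The sister lines stood further apart with decitabine than with DMSO in both genes. The difference in response from MOLM-13 was -1.81 for TRIB3, -2.31 for ASNS, -1.72 for PCK2 and -2.83 for CHAC1 on the log2 scale (limma, adjusted p = 6.76e-06, 3.09e-05, 4.31e-06 and 0.00016). A difference between lines cannot be told apart from a culture or library batch that goes with the line.

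**Figure D2:**
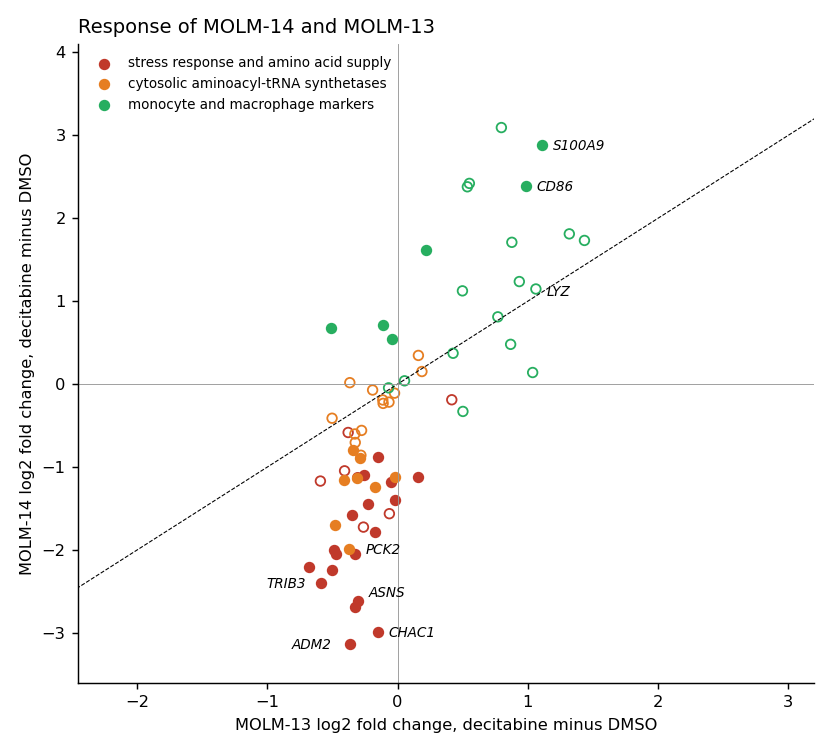
Log2 fold change of each gene (decitabine minus DMSO) in MOLM-14 on the vertical axis and in MOLM-13 on the horizontal axis, for stress response genes (red), cytosolic aminoacyl-tRNA synthetases (orange) and monocyte and macrophage markers (green), with the dashed line at equal response. Filled points passed the test of the difference between the lines (18 of 25 stress response genes, 8 of 21 synthetases and 6 of 22 markers), and the red points lie below the dashed line.

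Monocyte and macrophage genes rose. Of 28 listed markers 22 were tested, 12 rose and none fell, against 2.35% of all genes called higher, with a median log2 fold change of 1.14. Without the shallow pair 16 rose, against 5.66% of all genes. LYZ, the lysozyme of monocytes and granulocytes, had 8762, 7913 and 8753 normalised counts with decitabine, against 3911, 3564 and 4009 with DMSO (log2 fold change 1.15 ± 0.12 SE, limma, BH-adjusted p = 1.2e-06). The calcium-binding proteins S100A8 and S100A9 form a complex that is abundant in mature myeloid cells, and S100A9 had 503, 688 and 506 normalised counts with decitabine, against 78.0, 70.4 and 76.7 with DMSO (log2 fold change 2.88 ± 0.38 SE, limma, BH-adjusted p = 2.93e-05). S100A8 had 337, 387 and 396 normalised counts with decitabine, against 40.6, 30.4 and 63.0 with DMSO, and in either gene every decitabine value was several times every DMSO value (log2 fold change 3.09 ± 0.63 SE, limma, BH-adjusted p = 0.004). CD86, a costimulatory ligand of antigen-presenting cells, had 271, 199 and 321 normalised counts with decitabine, against 38.8, 44.3 and 66.4 with DMSO (log2 fold change 2.39 ± 0.27 SE, limma, BH-adjusted p = 2.92e-06). MNDA, a nuclear antigen of myeloid cells, had 783, 736 and 808 normalised counts with decitabine, against 237, 232 and 229.7 with DMSO (log2 fold change 1.73 ± 0.30 SE, limma, BH-adjusted p = 0.000716). CSF1R, the receptor for macrophage colony-stimulating factor, had 345, 272 and 329.8 with decitabine, against 49.6, 76.2 and 51.3 with DMSO and passed the test (log2 fold change 2.42 ± 0.56 SE, limma, BH-adjusted p = 0.0122). It did not pass without any of 4 libraries in turn (highest BH-adjusted p = 0.0857, without DMSO replicate 1). CD68, a lysosomal membrane protein of macrophages, rose by 1.71 on the log2 scale (limma, adjusted p = 0.000763). CD14 stayed at or near 0 and MRC1 and FCGR3A were listed at 0 in all 6 libraries.

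Lysosomal genes rose beside them. Of 27 tested, 9 rose and none fell, against 2.35% of all genes called higher, with a median log2 fold change of 0.52. Without the shallow pair 14 rose, against 5.66% of all genes. In MOLM-14 libraries alone 5 passed, where 169 of all 16730 genes were higher. GRN, which encodes the lysosomal growth factor progranulin, had 1720.4, 1852 and 1554 normalised counts with decitabine, against 799, 729.7 and 634 with DMSO (log2 fold change 1.25 ± 0.12 SE, limma, BH-adjusted p = 3.58e-07). PSAP, the precursor of the saposins that help to degrade sphingolipids, had 3651, 3369.7 and 3447 normalised counts with decitabine, against 2029, 1703 and 1961 with DMSO (log2 fold change 0.88 ± 0.13 SE, limma, BH-adjusted p = 0.00017). The proteases CTSD and CTSZ rose by 1.10 and 1.14 on the log2 scale (limma, adjusted p = 0.000235 and 0.000216). TREM2, a lipid receptor of macrophages, had 15.1, 59.4 and 24.1 with decitabine, against 4.38, 0 and 1.09 with DMSO normalised counts (log2 fold change 3.70 ± 0.61 SE, limma, BH-adjusted p = 0.000445). CHIT1, a chitinase of activated macrophages, had 14.2, 96.7 and 49.8 with decitabine, against 1.24, 0 and 4.46 with DMSO (log2 fold change 4.20, limma, BH-adjusted p = 0.0473). It did not pass when any of the 6 libraries was left out (highest BH-adjusted p = 0.158, without DMSO replicate 1).

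Markers of other cell types were summed beside this rise, and their part in it was not tested. The summed level of the 28 monocyte markers was 28167 to 28895 normalised counts in decitabine libraries and 14386 to 14652 in DMSO libraries. The 17 granulocyte markers summed to 31946 to 40012 with decitabine and 18554 to 24825 with DMSO, with LTF and LCN2 listed at 0 throughout. Of 12 tested 1 rose, against 2.35% of all genes called higher. This was PRTN3, a serine protease of early granules, which had 5290.5, 6894 and 4280.3 normalised counts with decitabine, against 1761, 2102 and 1136 with DMSO (log2 fold change 1.74 ± 0.30 SE, limma, BH-adjusted p = 0.00085). With MOLM-14 libraries only 3 granulocyte markers rose, without the shallow pair 4 and with a weight per library 6. Of all 16730 genes, 169, 947 and 1418 were higher in these fits. MPO, the peroxidase of the same granules, had 474, 1154 and 678 with decitabine, against 166, 218 and 123 with DMSO, without overlap, and did not pass (limma, BH-adjusted p = 0.162). MPO passed in MOLM-14 libraries alone (BH-adjusted p = 0.036) and without the shallow pair (BH-adjusted p = 0.0415). Progenitor markers summed to 25850 to 37709 with decitabine and 25256 to 35816 with DMSO, and CD34 ranged from 27.3 to 259 among decitabine libraries and from 27.5 to 128 among DMSO libraries. GATA2, a transcription factor of progenitors and mast cells, rose (log2 fold change 1.58 ± 0.29 SE, limma, BH-adjusted p = 0.0016). Of the 16 erythroid markers 10 were listed at 0 in all libraries, globins included, and PF4 and PPBP of platelets were listed at 0. Fibroblast and endothelial markers summed to 5668 to 5806 with decitabine and 2029.8 to 2438 with DMSO. Of 4 tested 2 rose, against 2.35% of all genes called higher. The 2 markers were PECAM1, an adhesion molecule that myeloid cells also carry, at 5343, 5506 and 5334 with decitabine, against 2240.4, 1804 and 2019 with DMSO (log2 fold change 1.42 ± 0.22 SE, limma, BH-adjusted p = 0.000187), and ACTA2, the actin of smooth muscle. ACTA2 had 317, 286 and 312 with decitabine, against 142, 128 and 149.9 with DMSO (log2 fold change 1.12 ± 0.23 SE, limma, BH-adjusted p = 0.00421). The defining markers COL3A1 of fibroblasts and CDH5 of endothelium were listed at 0. Lymphoid markers summed to 2869 to 6374 with decitabine and 2489.7 to 2614 with DMSO, with CD2, MS4A1 and KLRB1 at 0. Of 6 tested 1 rose, against 2.35% of all genes called higher. This was PRF1, the perforin of cytotoxic lymphocytes, with 59.2, 50.9 and 138 with decitabine, against 2.67, 14.2 and 17.5 with DMSO (log2 fold change 2.90 ± 0.76 SE, limma, BH-adjusted p = 0.0278). PRF1 was not called without decitabine replicate 1, decitabine replicate 3 or DMSO replicate 1 (highest BH-adjusted p = 0.221, without DMSO replicate 1). Epithelial markers summed to 1538.5 to 1898 with decitabine and 774 to 4044 with DMSO, with EPCAM at 0. Fewer cells of a type and less RNA per cell cannot be told apart in these bulk samples.

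**Figure D3:**
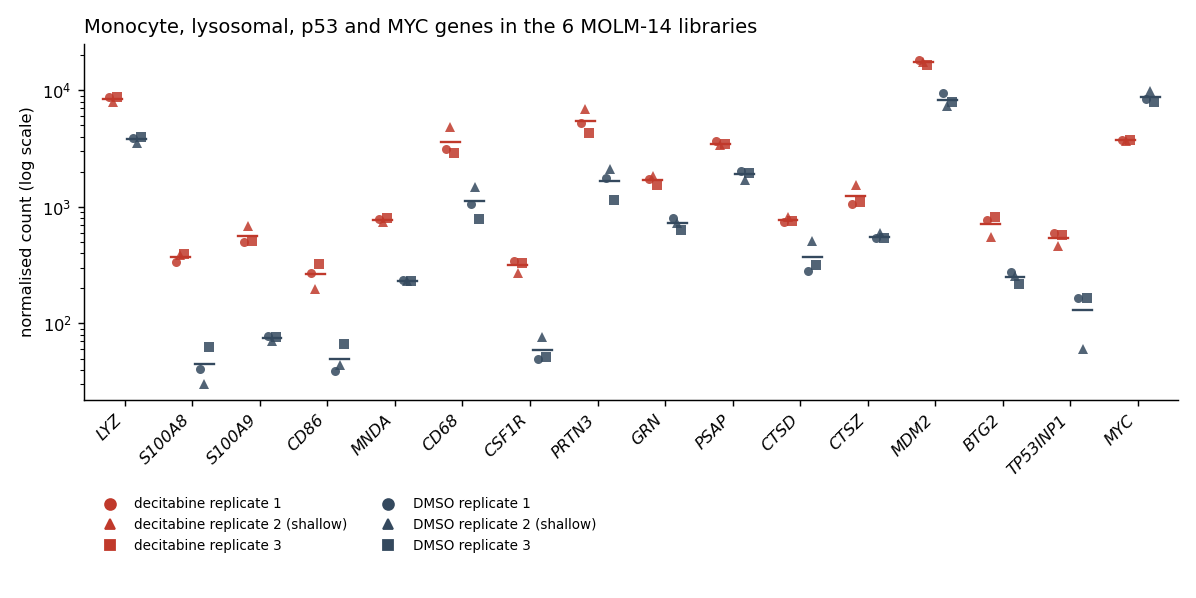
Normalised counts on a log axis of 16 monocyte, lysosomal, p53 and MYC genes in the 3 decitabine libraries (red, left of each pair) and the 3 DMSO libraries (dark, right), with group means as lines and triangles for the shallow replicate 2. Decitabine points lie above DMSO points in the first 15 genes and below them in MYC, at 3666 to 3764 against 7992 to 9867.

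Targets of p53 rose in part. Of 25 tested, 6 rose and 1 fell, against 2.35% of all genes called higher and 1.63% lower, with a median log2 fold change of 0.50. Without the shallow pair 11 rose and 2 fell, against 5.66% and 4.66% of all genes. MDM2, the ligase that degrades p53, had 18151, 17389 and 16564 normalised counts with decitabine, against 9399, 7314 and 7952 with DMSO (log2 fold change 1.09 ± 0.13 SE, limma, BH-adjusted p = 5.78e-06). BTG2, an antiproliferative gene, had 773, 548 and 813 normalised counts with decitabine, against 278, 253 and 218 with DMSO (log2 fold change 1.49 ± 0.18 SE, limma, BH-adjusted p = 8.34e-06). TP53INP1 had 593, 461 and 578 normalised counts with decitabine, against 166, 60.2 and 164 with DMSO, with no overlap in any of the 3 genes (log2 fold change 2.19 ± 0.27 SE, limma, BH-adjusted p = 9.92e-06). ZMAT3, an RNA-binding target of p53, rose by 1.08 on the log2 scale (limma, adjusted p = 0.000945). CDKN1A, which encodes the cell cycle inhibitor p21, had 6600.1, 6137 and 6076 with decitabine, against 3537, 3187 and 2955 with DMSO, without overlap and with a log2 fold change of 0.96. It missed the threshold in the fit of all lines (limma, BH-adjusted p = 0.0642) and passed it in MOLM-14 libraries alone (BH-adjusted p = 0.0076). The member that fell was SESN2, which ATF4 also controls.

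Part of the genes of DNA replication, division and growth fell. All 32 replication genes had a log2 fold change below 0, with a median of -0.46. Of these 6 passed the test as lower and none as higher, against 1.63% of all genes called lower. Without the shallow pair 14 passed, against 4.66% of all genes. The same shares stand beside the falls counted below in the mitosis, MYC and histone lists. RFC3, a subunit of the clamp loader, had 1378, 1235 and 1482 normalised counts with decitabine, against 2296, 2252 and 2448 with DMSO (log2 fold change -0.78 ± 0.13 SE, limma, BH-adjusted p = 0.000626). MCM6, part of the replicative helicase, had 2182, 1764 and 2113 normalised counts with decitabine, against 3136, 3247 and 3482 with DMSO (log2 fold change -0.71 ± 0.13 SE, limma, BH-adjusted p = 0.00151). CDT1, which loads that helicase, had 953, 707 and 944 normalised counts with decitabine, against 1672, 1596 and 1603 with DMSO, again with separate groups (log2 fold change -0.92 ± 0.17 SE, limma, BH-adjusted p = 0.00177). Of 27 mitosis genes 4 fell and none rose, with a median of -0.37, and TPX2, a spindle assembly factor, fell by 0.51 on the log2 scale (limma, adjusted p = 0.00256). The other 3, BUB1B, CCNA2 and KIF23, were not called without any of 5, 5 and 4 libraries in turn (highest BH-adjusted p = 0.114, 0.115 and 0.151, without decitabine replicate 1, DMSO replicate 1 and decitabine replicate 1). MYC had 3764, 3666 and 3732 normalised counts with decitabine, against 8385, 9867 and 7992 with DMSO (log2 fold change -1.23 ± 0.16 SE, limma, BH-adjusted p = 2.17e-05). Among 25 MYC and ribosome biogenesis genes 4 fell and none rose, with a median of -0.42, and 11 fell without the shallow pair, whereas 1 or 2 fell without decitabine replicate 1, decitabine replicate 3, DMSO replicate 1 or DMSO replicate 3. Replication-dependent and other histone genes had a median of -0.63 over 27 tested, of which 2 fell and 1 rose. With MOLM-14 libraries only 7 fell, without the shallow pair 10, and without decitabine replicate 1, DMSO replicate 1 or DMSO replicate 3 none fell. Of all 16730 genes, 162 were lower with MOLM-14 libraries only. H2AZ1, a histone variant gene, fell by 0.73 on the log2 scale, but was not called without decitabine replicate 1, DMSO replicate 1 or DMSO replicate 3 (limma, BH-adjusted p = 0.0588, 0.0586 and 0.0571).

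Among the drug's own targets and handling genes 1 passed the test. None of the 19 DNA methylation genes tested passed, with a median log2 fold change of -0.07. Without the shallow pair 2 fell and none rose, against 4.66% of all genes called lower, and over the other settings 0 to 4 fell. DNMT1, the maintenance methyltransferase that decitabine is known to deplete as a protein, had 4641, 7135 and 4067 normalised counts with decitabine, against 6896, 9881 and 6577 with DMSO, and the groups overlapped (log2 fold change -0.58 ± 0.31 SE, limma, BH-adjusted p = 0.351). DNMT1 was not called in 19 of 21 other settings, but passed in the weighted fit of MOLM-14 alone (limma, BH-adjusted p = 0.0209). UHRF1, which guides DNMT1 to replicated DNA, had 4869, 5446 and 4555 with decitabine, against 5988, 6767 and 5878 with DMSO, a set without overlap that did not pass (limma, BH-adjusted p = 0.174). UHRF1 was not called in 16 of 21 other settings, but passed without the shallow pair and in the weighted fit of MOLM-14 alone (limma, BH-adjusted p = 0.0262 and 0.0275). DNMT3A and DNMT3B had overlapping values and log2 fold changes of -0.12 and -0.01. Of 17 genes for uptake and metabolism of the drug 1 fell and none rose, against 1.63% of all genes called lower. The gene that fell was SLC29A1, the nucleoside transporter ENT1, with 587, 489 and 632 normalised counts with decitabine, against 929, 959.6 and 848 with DMSO (log2 fold change -0.69 ± 0.14 SE, limma, BH-adjusted p = 0.00317). Its response differed from that of MOLM-13 by -0.79 (limma, BH-adjusted p = 0.00455). DCK, the activating kinase, had 1217, 1173 and 1189 with decitabine, against 1340.1, 1358 and 1211 with DMSO and a log2 fold change of -0.13. SAMHD1, which hydrolyses the active triphosphate, had 9253, 8006 and 7251 with decitabine, against 5356, 5908 and 4542 with DMSO without overlap and was just outside the threshold (log2 fold change 0.63, limma, BH-adjusted p = 0.0522), but passed without the shallow pair (BH-adjusted p = 0.00215). CDA, the deaminase that inactivates the drug, was below the minimum for testing, at 6.19, 10.9 and 3.82 with decitabine and 1.34, 0 and 2.20 with DMSO.

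A few genes of survival and FLT3 signalling changed. BCL2, the antiapoptotic target of venetoclax, had 2669, 2932 and 3677 normalised counts with decitabine, against 5105, 4833 and 6695 with DMSO (log2 fold change -0.84 ± 0.19 SE, limma, BH-adjusted p = 0.00874). BCL2 was not called without decitabine replicate 1 or DMSO replicate 3 (limma, BH-adjusted p = 0.0925 and 0.0850). MCL1, another antiapoptotic gene, had 4949, 5059 and 4874 with decitabine, against 3904, 4496 and 4103 with DMSO without overlap and did not pass (limma, BH-adjusted p = 0.169). MCL1 was not called in 17 of 21 other settings, but passed without the shallow pair and in the weighted fit of MOLM-14 alone (limma, BH-adjusted p = 0.0121 and 0.0265). PIM1, a kinase that STAT5 is known to switch on downstream of FLT3, rose, with 692, 852 and 749 normalised counts with decitabine, against 334, 476 and 332 with DMSO (log2 fold change 1.02 ± 0.15 SE, limma, BH-adjusted p = 0.000139). PHLDA1, an ERK-responsive gene, had 201, 267 and 189.5 with decitabine, against 55.0, 52.3 and 69.6 with DMSO (log2 fold change 1.87 ± 0.29 SE, limma, BH-adjusted p = 0.000207). Of the 27 genes in that list 3 rose and none fell, against 2.35% of all genes called higher, with a median of 0.02. Among 25 KMT2A fusion targets BCL2 alone was called, against 1.63% of all genes called lower. TERT, the telomerase reverse transcriptase, had 176, 60.7 and 149 with decitabine, against 734, 1136 and 611 with DMSO without overlap and was not called (log2 fold change -2.76, limma, BH-adjusted p = 0.0712). TERT passed in MOLM-14 libraries alone and without the shallow pair (BH-adjusted p = 0.0272 and 0.0435).

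How many interferon genes passed the test depended on the fit. Of 31 interferon-stimulated genes 3 rose and none fell, against 2.35% of all genes called higher. Without the shallow pair 7 rose, with no variance scale per line 12, and with MOLM-14 libraries only none. Of all 16730 genes, 947, 1310 and 169 were higher in these fits. The median log2 fold change of the interferon-stimulated genes was 0.60, and 14 had separate groups with decitabine above, against 13.4% of all genes. IFIT3, an antiviral effector, had 123, 204 and 128 normalised counts with decitabine, against 58.0, 40.3 and 59.9 with DMSO (log2 fold change 1.49 ± 0.23 SE, limma, BH-adjusted p = 0.000222). IFI6 had 51.7, 61.8 and 69.5 with decitabine, against 12.6, 20.2 and 23.8 with DMSO (log2 fold change 1.68 ± 0.29 SE, limma, BH-adjusted p = 0.000741). ISG15 and IRF7, often used as readouts of interferon signalling, did not pass (limma, BH-adjusted p = 0.303 and 0.159), and none of 10 sensors of nucleic acids passed. The class I heavy chain gene HLA-B had 13431, 15047 and 12143 normalised counts with decitabine, against 6946, 7296 and 6914 with DMSO (log2 fold change 0.94 ± 0.24 SE, limma, BH-adjusted p = 0.022). Reads of HLA genes are hard to assign between copies. HLA-B was not called without any of 4 libraries in turn (highest BH-adjusted p = 0.107, without DMSO replicate 1). Among 22 checkpoint ligands and receptors 4 rose, against 2.35% of all genes called higher. Only 2 rose without decitabine replicate 3 or without any 1 of the 3 DMSO libraries. Of all 16730 genes, 219 were higher without decitabine replicate 3, and 254, 372 and 297 without DMSO replicates 1, 2 and 3. Among the 4 checkpoint genes, VSIR, an inhibitory ligand of myeloid cells, had 819, 807 and 747 normalised counts with decitabine, against 380.1, 413 and 312 with DMSO (log2 fold change 1.11 ± 0.18 SE, limma, BH-adjusted p = 0.000286). CD83, a marker of dendritic cell maturation and an NF-kB target, rose by 0.95 on the log2 scale (limma, adjusted p = 0.000657).

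**Figure D4:**
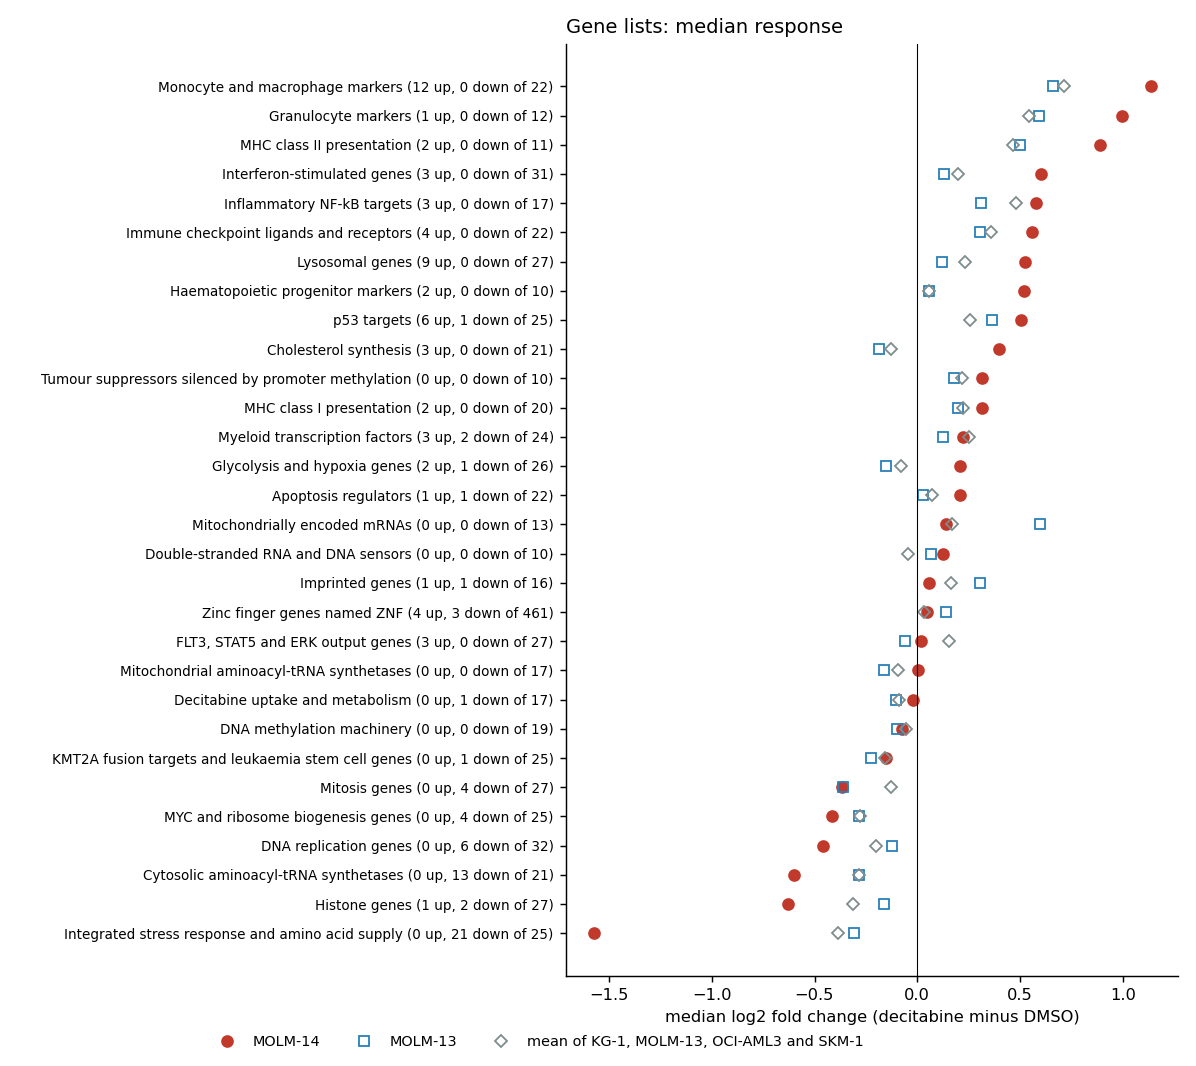
Median log2 fold change (decitabine minus DMSO) over the tested genes of each list with at least 10 of them, in MOLM-14 (red), MOLM-13 (blue squares) and the mean of the other 4 lines (grey diamonds), with the number of genes that rose and fell in MOLM-14 beside each name. The stress response list stands at -1.57 in MOLM-14 against -0.31 in MOLM-13 and -0.39 in the mean of the other 4 lines, and the monocyte markers at 1.14 against 0.66 and 0.72.

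Among the largest rises were genes near 0 without the drug. Those with a DMSO mean under 10 entered the test only through their decitabine values, so that the filter fixed their direction. H19, an imprinted noncoding RNA whose expression depends on DNA methylation, had 1198, 1731 and 1531 normalised counts with decitabine, against 24.3, 41.3 and 19.1 with DMSO (log2 fold change 5.73 ± 0.62 SE, limma, BH-adjusted p = 1.7e-06). H19 was the largest rise among all called genes, and with a DMSO mean of 28.2 its direction was not fixed by the filter. NR5A1, a nuclear receptor of steroid-producing tissues, had 21.1, 126 and 19.2 with decitabine, against 0, 0 and 0 with DMSO, and is listed at 0 in all DMSO libraries, so that no fold is given. LOXL4, a lysyl oxidase, had 48.3, 51.4 and 67.0 with decitabine, against 5.03, 0 and 1.13 with DMSO (log2 fold change 4.58 ± 0.71 SE, limma, BH-adjusted p = 0.000216). MAPT, which encodes the microtubule protein tau, had 77.8, 188 and 75.2 with decitabine, against 7.38, 0 and 10.9 with DMSO (log2 fold change 4.49 ± 0.82 SE, limma, BH-adjusted p = 0.00143). TDRD9, a helicase of the germline piRNA pathway, had 8.85, 40.8 and 41.6 with decitabine, against 1.54, 0 and 0 with DMSO (log2 fold change 4.25 ± 0.81 SE, limma, BH-adjusted p = 0.00198). It was the 1 gene called among 9 cancer-testis and germline genes tested of 41 in the table, against 2.35% of all genes called higher. Without the shallow pair 2 of the 9 rose, against 5.66% of all genes. TKTL1, which is related to transketolase, had 13.7, 15.9 and 33.3 with decitabine, against 0, 0 and 0.872 with DMSO, and it was not called without decitabine replicate 3 or DMSO replicate 1 (limma, BH-adjusted p = 0.0856 and 0.0727). PRAME and MAGEB2, cancer-testis genes that decitabine raises in many tumour lines, did not pass. PRAME had 20.9, 10.7 and 15.0 with decitabine, against 12.4, 20.9 and 5.92 with DMSO, and MAGEB2 had 20.3, 0 and 38.3 with decitabine, against 3.78, 10.1 and 2.26 with DMSO, and both overlapped between the groups. MAGEB2 was not called in 18 of 20 other settings, but passed as higher without the shallow pair (log2 fold change 2.875, limma, BH-adjusted p = 0.00315). PRAME did not pass without that pair (limma, BH-adjusted p = 0.125). PNMA5 was below the minimum for testing at 14.2, 20.9 and 6.07 with decitabine and is listed at 0 in all DMSO libraries.

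The other protein-coding genes among the 12 largest rises were ANXA8, STAB1, MST1, CHIT1, MUSTN1, FSTL5 and DUSP27, with log2 fold changes between 3.96 and 4.92. Each of these 7 lost its call without at least 1 library (highest BH-adjusted p = 0.183, for STAB1 without DMSO replicate 1), while H19, NR5A1, LOXL4, MAPT and TDRD9 kept theirs without each library in turn. ANXA8 shares sequence with a near-identical copy and its level is uncertain for that reason. Among noncoding genes AL353807.5, AL590226.2 and LINC02212 rose next after H19, and AL590226.2 was not called without decitabine replicate 1 (limma, BH-adjusted p = 0.0658). The other protein-coding genes among the 12 largest falls were ROBO2, HOXB9, LRATD2, EPB41L5 and ZNF492, which were all low, with DMSO values from 5.66 to 68.0 normalised counts, and each lost its call without at least 1 library (highest BH-adjusted p = 0.231, for HOXB9 without DMSO replicate 1). Any of these low genes with a decitabine mean under 10 passed the filter only through its DMSO values. Among noncoding genes LINC00653, AC006504.1 and VLDLR-AS1 fell beside SLC7A5P1, and LINC00653 and VLDLR-AS1 were not called without any of 4 libraries in turn (highest BH-adjusted p = 0.0877 and 0.211). VLDLR-AS1 is antisense to VLDLR, and the strand setting used in counting is not stated, so that their reads may not be told apart. GRB10, an imprinted adaptor of growth factor receptors, fell, with 563, 324 and 433 normalised counts with decitabine, against 1518, 1329 and 1451 with DMSO (log2 fold change -1.74 ± 0.28 SE, limma, BH-adjusted p = 0.000404).

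**Figure D5:**
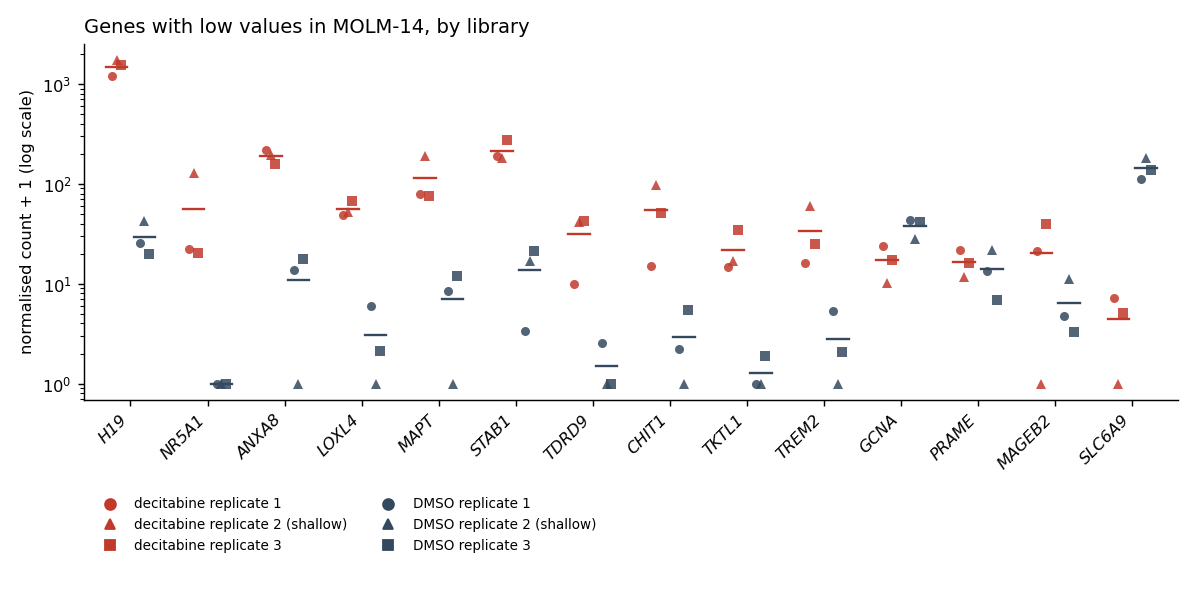
Normalised counts plus 1 on a log axis of 14 genes with low values in MOLM-14, in the 3 decitabine libraries (red, left of each pair) and the 3 DMSO libraries (dark, right), with group means as lines and triangles for the shallow replicate 2. H19 stands at 1198 to 1731 normalised counts with decitabine against 19.1 to 41.3 with DMSO, NR5A1 is listed at 0 in all DMSO libraries, and PRAME and MAGEB2 overlap between the groups.

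Sterol and sugar metabolism changed in a few genes. Of 21 cholesterol synthesis genes 3 rose and none fell in MOLM-14, against 2.35% of all genes called higher. Their median log2 fold change was 0.40, against -0.19 in MOLM-13. Between these lines 5 differed in response, against 1.64% of all genes. None rose without decitabine replicate 1, decitabine replicate 3, DMSO replicate 1 or DMSO replicate 2. HMGCS1, which makes the first committed precursor, had 3124, 2304 and 3018 normalised counts with decitabine, against 1646, 1464 and 1730.5 with DMSO (log2 fold change 0.79 ± 0.21 SE, limma, BH-adjusted p = 0.0323). It was not called without any of 5 libraries in turn (highest BH-adjusted p = 0.179, without decitabine replicate 1). CYP51A1, a demethylase of sterol precursors, had 2504, 2319.8 and 2633 with decitabine, against 1875, 1712 and 2094 with DMSO and a log2 fold change of 0.40, against -0.37 in MOLM-13, a difference of 0.77 (limma, BH-adjusted p = 0.00016). It was not called without any of 4 libraries in turn (highest BH-adjusted p = 0.127, without decitabine replicate 3). The hexokinases, which start glycolysis, moved in opposite directions. HK1 had 349, 369 and 301 normalised counts with decitabine, against 138, 118 and 196 with DMSO (log2 fold change 1.19 ± 0.16 SE, limma, BH-adjusted p = 3.24e-05). HK2 had 1068, 856 and 974 normalised counts with decitabine, against 1686, 1761 and 1725 with DMSO (log2 fold change -0.84 ± 0.16 SE, limma, BH-adjusted p = 0.00229).

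Most changes in MOLM-14 had the direction of the mean response of the other lines. Of the 393 genes that rose, 372 had a mean response above 0 in the other 4 lines, and of the 272 that fell, 246 had one below 0. The median of that mean response was 0.41 for genes that rose and -0.25 for genes that fell, against 0.03 over all genes tested. The share of all genes with the same direction was not counted. Of the genes that rose, 225 were also called higher in MOLM-13 and 11 lower, where 15.7% of all genes are called in each direction. Over all genes, 144 of 16730 (0.861%) responded unlike the mean of the other lines, 52 of them higher in MOLM-14 and 92 lower, and 275 (1.64%) responded unlike MOLM-13. Without decitabine replicate 1, decitabine replicate 3, DMSO replicate 1 or DMSO replicate 3 the counts were 56, 66, 67 and 83 against the mean of the other lines and 101, 110, 100 and 179 against MOLM-13. The largest protein-coding differences on the higher side were MLPH, MAPT, TREM2, SPAG16, MAS1 and NLRC4. Each had a DMSO mean under 10 and passed the filter through its decitabine values. The differences of TREM2 and SPAG16 passed without each MOLM-14 library in turn, those of MAPT, MAS1 and NLRC4 without 2, 1 and 1 of the 6, and that of MLPH did not pass when any of the 6 was left out. That of MAS1 did not pass without the shallow pair (BH-adjusted p = 0.0593). NLRC4, an inflammasome sensor, had 19.5, 59.2 and 20.7 with decitabine, against 3.63, 0 and 8.66 with DMSO in MOLM-14, with a log2 fold change of 3.07 against 0.17 in the mean of the other lines (difference 2.91, limma, BH-adjusted p = 0.0449). That difference of NLRC4 did not pass without the shallow pair (BH-adjusted p = 0.0784). On the lower side were SLC6A9, COL14A1, TGFBI, GCNA, P4HA2 and EPB41L5. SLC6A9 averaged 3.435 with decitabine and 143.7 with DMSO in MOLM-14, so that it passed the filter only through its DMSO values. The differences of SLC6A9 and GCNA passed without each library in turn, and those of COL14A1, TGFBI, EPB41L5 and P4HA2 without 5, 5, 2 and 1 of the 6. That of P4HA2 did not pass without the shallow pair (BH-adjusted p = 0.203). GCNA, a germ cell nuclear protein, had 23.0, 9.28 and 16.2 with decitabine, against 42.1, 27.3 and 40.4 with DMSO in MOLM-14 and did not pass there (limma, BH-adjusted p = 0.0963), whereas its mean log2 fold change in the other lines was 2.58 (difference -3.77, BH-adjusted p = 1.14e-05). COL14A1, a collagen, had a log2 fold change of -0.30 in MOLM-14 and 4.67 in the other lines (difference -4.96, BH-adjusted p = 0.00509, and 0.0582 without decitabine replicate 1). H19 separated the sister lines, with a difference of 5.96 between MOLM-14 and MOLM-13 (limma, BH-adjusted p = 6.76e-06), and it averaged 1.02 with decitabine and 1.39 with DMSO in MOLM-13. H19 also rose in the remaining lines, with a log2 fold change of 5.71 (SKM-1), 4.11 (OCI-AML3) or 3.64 (KG-1).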

How the data were processed

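RNA-seq values came from 1 deposited table of normalised gene-level signal (normalised counts), and the submitters' processing notes name hg38, STAR, Salmon 1.2.1, featureCounts, DESeq2 and limma. The scaling formula, annotation release and strand setting of the counting are not given in the sources used here. Columns were matched to samples by line name, treatment letter and replicate number. The 12 HL-60 columns belong to no labelled sample and were not used, and 12 labelled samples without a column (OCI-AML2 and THP-1) were not analysed here. Low values were whole multiples of 1 step (tolerance 0.02) in 44.2% to 63.0% of cases in MOLM-14 libraries, so that no read counts were recovered, and depths are estimates from that step.

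From these values log2(value + 1) was fitted in limma 3.58.1 (R 4.3.3, statmod 1.5.0), with a mean per line and treatment over 30 libraries, a variance scale per line, and moderated, trended and robust variances. Tested were the 16730 genes with a mean of at least 10 over the 6 MOLM-14 libraries, with Benjamini-Hochberg adjustment over all of them and a threshold of 0.05. Adding 1 before the log shrinks the fold changes of low genes, and the shallow pair moved them in either direction. Without that pair the log2 fold change was 2.58 rather than 3.70 for TREM2 and 2.96 rather than 4.49 for MAPT. It was -0.67 rather than -2.39 for EPB41L5, and 3.47 rather than 2.90 for PRF1. Shares were compared by exact permutation over samples. Intervals for single counts are not given, since the table holds no counts. Gene types and positions came from GENCODE 29, and promoters from RefSeq on GRCh38.p14, with genes on chromosome 8 left out of the promoter search.

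The named genes are, by rule, the 12 protein-coding and 4 other genes with the largest change in each direction among called genes with separate groups, up to 4 called members of each list with the smallest p, a fixed set of defining genes, and the 6 largest differences from the other lines in each direction. A few genes that the rule or the lists hold are not reported here. Genes named outside this rule, among them the genes with the TGATGNAA element, the aminoacyl-tRNA synthetases and the stress response members that missed the threshold, were chosen after their values were seen. All members and lists were chosen with earlier results of these data known, and the synthetase lists, the promoter element and the alternatives for the gene lists, the mitochondrial share and the weighted fit of MOLM-14 alone were added after seeing the data. Alternatives covered the weights, the lines in the fit, a replicate block, pseudocount, filter, scaling, and each MOLM-14 library left out.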

Additional observations from a re-analysis of the deposited data

Results flagged for a closer look

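The response of 75 named genes (log2 fold change, decitabine minus DMSO) differed between MOLM-14 and other lines by a test of the difference itself (limma, BH-adjusted p below 0.05 over 16730 genes), and these are the results a closer look would start from. For 49 genes the difference is given from the mean of the other 4 lines, and for the other 26, which did not pass that test or had a group at 0 in it, from MOLM-13. Differences are MOLM-14 minus the other lines on the log2 scale. Of the 75, 21 passed without each MOLM-14 library in turn and 71 passed without the shallow pair, and what sets the lines apart was not tested.

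Among stress response and amino acid synthesis genes the difference from the mean of the other lines was -2.30 for TRIB3, -2.10 for ASNS, -2.15 for CHAC1, -2.19 for ADM2, -1.54 for PSAT1, -1.37 for PHGDH, -0.72 for SHMT2, -1.57 for PCK2, -2.38 for CTH, -1.22 for SESN2 and -1.56 for CEBPB. From MOLM-13 it was -0.72 for ATF4, -1.38 for DDIT4, -2.35 for STC2 and -1.28 for DDIT3. Amino acid transporters and BCAT1 differed from the mean of the other lines by -1.35 for SLC7A5, -1.33 for SLC7A11, -1.21 for SLC3A2, -0.90 for SLC38A2, -5.52 for SLC6A9, -0.98 for SLC7A1, -0.73 for SLC38A1, -3.14 for SLC7A5P1 and -0.84 for BCAT1. Among cytosolic aminoacyl-tRNA synthetases the values were -1.23 for GARS1, -1.04 for SARS1, -0.48 for EPRS1, -0.88 for CARS1 and -1.51 for WARS1, and from MOLM-13 they were -0.82 for AARS1, -1.07 for MARS1 and -0.60 for YARS1. All 32 of these differences were below 0.

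Among myeloid and antigen-presenting cell genes the difference from the mean of the other lines was 0.77 for GRN, 3.67 for TREM2, 1.54 for PRTN3, 0.97 for VSIR and 2.91 for NLRC4, and from MOLM-13 it was 1.77 for S100A9, 1.40 for CD86, 0.71 for CTSD, 4.96 for CHIT1, 1.33 for GATA2, 0.91 for PECAM1 and 0.89 for CD83. Genes of p53, signalling, interferon, replication and drug uptake differed from the mean of the other lines by 0.73 for MDM2, 1.23 for TP53INP1, 1.03 for PIM1, 1.37 for IFIT3, -0.86 for CDT1 and -0.72 for SLC29A1, and from MOLM-13 by 1.05 for BTG2, -0.74 for MYC, 0.44 for MCL1 and 1.38 for PHLDA1. In sterol and sugar metabolism the values were 0.52 for CYP51A1 and 0.80 for HK1 from the mean of the other lines and 1.05 for HMGCS1 from MOLM-13. Among genes with large changes or low values the difference from the mean of the other lines was 4.09 for MAPT, 4.12 for AL353807.5, -2.81 for EPB41L5, -1.62 for AC006504.1, -1.49 for GRB10, 3.49 for SPAG16, 3.18 for MAS1, -4.96 for COL14A1, -4.39 for TGFBI, -3.77 for GCNA and -3.19 for P4HA2. From MOLM-13 it was 5.96 for H19, 3.37 for TDRD9, 3.74 for DUSP27, -3.88 for HOXB9, -3.06 for ZNF492, -2.83 for LINC00653 and -1.83 for VLDLR-AS1. NR5A1 and MLPH also passed such a test, but a group of each is listed at 0 in all its libraries and no difference is given.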

How the results depend on the processing

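The counts of 393 higher and 272 lower genes, 144 unlike the mean of the other 4 lines and 275 unlike MOLM-13 moved most with how the spread was estimated. With no variance scale per line they were 1310, 1056, 708 and 366, with a weight per library 1418, 1195, 973 and 1522, and without the shallow pair of both arms 947, 779, 463 and 874. With MOLM-14 libraries only 169 were higher and 162 lower, and with a weight per library added, an alternative chosen after seeing the data, 1104 and 965. With no filter on low values the counts were 171, 124, 59 and 82, and with a mean of at least 50 they were 487, 432, 211 and 458. Leaving out 1 library at a time gave 182 to 375 higher, 128 to 288 lower, 56 to 142 unlike the mean of the other lines and 100 to 267 unlike MOLM-13, and why the counts vary between libraries was not tested. Totals without mitochondrial genes gave 451 higher and 230 lower.

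Same-numbered decitabine and DMSO replicates deviated together at r = 0.0769, 0.0839 and 0.125, and over genes with a mean of at least 200 at r = 0.0875, 0.209 and 0.319. Neither set was all above 0.1, so that the numbers are not taken to pair the samples, although each library correlated best with its own number, a hint from the data. Replicate 2 was also shallow in both arms of KG-1 (4.59 M reads with decitabine and 2.97 M with DMSO) and OCI-AML3 (2.51 and 2.67 M). Whether the replicate number marks a shared preparation or run was not tested. With the replicate block 509 genes were higher, 398 lower, 157 unlike the mean of the other lines and 286 unlike MOLM-13.

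The 112 called genes followed through the settings are those named here without RSL24D1, CDKAL1, PCGF6 and TRUB1. Of the 112, 59 stayed past the threshold in every setting that tested them, 110 without the shallow pair and 67 with MOLM-14 libraries only, and none reversed. The list counts of 21 stress response genes that fell and 12 monocyte markers that rose ranged over 20 to 24 and 8 to 16. Reversals concerned 7 genes that were not called. CD34 had log2 fold changes of -1.15 with a weight per library, -1.26 without the shallow pair, -1.14 in the weighted fit of MOLM-14 alone and -0.63 to 0.97 without 1 library. DNMT3B gave 0.0762, 0.0750 and 0.0752 under these settings, 0.0337 with totals without mitochondrial genes and -0.0873 to 0.0741 without 1 library. KARS1 gave 0.0219 under quantile normalization. Without 1 library at a time the ranges were -0.17 to 0.0385 for KARS1, -0.34 to 0.0405 for DNMT3A, -0.53 to 0.0076 for NUPR1, -0.10 to 0.73 for PRAME and -0.27 to 2.38 for MAGEB2.

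Replicate 2 of each arm, which is far shallower than the others, limits the low genes, since 1 read there is worth about 10 normalised counts. The contrast with MOLM-13 could not be had in the fit restricted to MOLM-14, KG-1 and OCI-AML3, nor any contrast between lines in the fits of MOLM-14 alone.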
